A study of Mus musculus with 12 samples.

Results

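The 7 genes Hmgn5, Socs2, Wsb2, Slc25a13, Vim, Nmt1 and Lamb2 were selected on their measured change in expression between the 5hmC-stalling mutant of Tet1 and wild type, in female mouse primordial germ cells. They were followed here in the mutants that were not used to pick them, the catalytically dead mutant and the knockout. All 7 were found among 35976 genes of the count table and all 7 were among the 16166 genes tested. Primordial germ cells are the embryonic precursors of eggs and sperm. They were taken from E14.5 embryos, and RNA was extracted from 5000 cells; the labels do not state how the cells were isolated. There were 3 libraries each of V (genotype Tet1V/V, described as stalling at 5-hydroxymethylcytosine), HxD (Tet1HxD/HxD, catalytically dead), KO (Tet1-/-) and WT, all female. Libraries are called V1 to V3, HxD1 to HxD3, KO1 to KO3 and WT1 to WT3 after their titles. No label ties a library to an embryo or litter, so the spread behind each p-value is that among the libraries at hand and may be technical.

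TET1 is an enzyme that oxidizes 5-methylcytosine in DNA, first to 5-hydroxymethylcytosine (5hmC) and then to further products that are removed by repair. A protein that stops at 5hmC, a protein with no catalytic activity and the absence of the protein therefore take away different parts of its function. At this stage female germ cells leave the pluripotent-like state of migrating germ cells and begin meiosis. The 7 genes encode a nucleosome-binding protein, an inhibitor of cytokine signalling, a ubiquitin ligase adaptor, a mitochondrial carrier, a cytoskeletal filament, a lipid-attaching enzyme and a basement membrane subunit.

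Library totals lay between 18471158 counts in V1 and 29495313 counts in V2, and between 12568 genes in KO3 and 17614 genes in HxD3 had a count. Each member had at least 264 counts in every library. Tet1 itself averaged 205 ± 18.1 CPM in V, 245 ± 35.5 CPM in HxD, 123 ± 39.3 CPM in KO and 162 ± 63.8 CPM in WT (normalized CPM, SD, n = 3), and none of these mutants was called against WT. The deleted part of the gene is not stated, so these levels do not check the KO label. Germ cell markers summed to 3516 to 3976 CPM in V, 3603 to 4019 CPM in HxD, 3875 to 4127 CPM in KO and 4054 to 4328 CPM in WT, over 10 genes. Of these 10, edgeR called 2 in V (Dazl lower and Pou5f1 higher), 1 in HxD and 2 in KO against WT. The sums join markers that went opposite ways. Dazl, the largest marker in WT, was at 1222 to 1976 CPM there and 533 to 899 CPM in the mutants. Ddx4 was at 633 to 734 CPM in WT and 310 to 613 CPM in the mutants. Pou5f1 was at 211 to 327 and 346 to 720 CPM, and Dnd1 at 129 to 207 and 208 to 290 CPM. The other markers overlapped between WT and mutants. The 12 markers of supporting (pregranulosa) cells summed to 18.5 to 76.7 CPM in V, with the top in V1. Their sums were 15.2 to 37.1 CPM in HxD, 19.9 to 22.6 CPM in KO and 31.2 to 66.1 CPM in WT. Of these markers, Foxl2 was at 0 in every WT library and in HxD1, KO1, KO3 and V2. Irx3 was above 0 in every library, at 18.6 to 27.4 CPM in WT. No tested marker of supporting, mesenchymal, endothelial, blood or epithelial cells was called in V, HxD or KO against WT. In that order, 11 of 12, 4 of 10, 5 of 8, 3 of 10 and 4 of 8 markers were tested. Over all genes 0.155% were called in V, 0.0309% in HxD and 1.22% in KO, so this does not show that such cells were absent. Marker sums and the marker values given beside them are CPM of each library's total counts.

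The promoters of 3 genes are shown because their genes had the highest log2 fold change of the 7 in V, the highest in KO and the only negative one: Hmgn5 (chrX:109013331-109013630, minus strand), Slc25a13 (chr6:6217124-6217423, minus strand) and Lamb2 (chr9:108479612-108479911, plus strand). They are RefSeq sequences of build GRCm38.p6, 5′ to 3′, from 250 bases before to 50 bases after the start of the gene, with CpG dinucleotides, the sites of DNA methylation, in capitals.
Hmgn5: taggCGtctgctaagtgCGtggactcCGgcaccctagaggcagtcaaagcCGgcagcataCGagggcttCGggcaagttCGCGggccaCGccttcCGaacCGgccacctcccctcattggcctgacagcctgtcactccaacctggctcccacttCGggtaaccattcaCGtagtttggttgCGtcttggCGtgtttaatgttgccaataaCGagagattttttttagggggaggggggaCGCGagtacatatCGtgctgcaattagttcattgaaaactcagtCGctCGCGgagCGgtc
Slc25a13: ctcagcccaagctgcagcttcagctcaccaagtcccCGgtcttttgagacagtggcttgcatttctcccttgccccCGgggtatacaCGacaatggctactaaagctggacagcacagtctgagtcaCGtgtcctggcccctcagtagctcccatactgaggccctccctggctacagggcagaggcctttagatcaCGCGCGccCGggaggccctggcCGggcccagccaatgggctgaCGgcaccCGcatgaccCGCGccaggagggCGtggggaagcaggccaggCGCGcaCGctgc
Lamb2: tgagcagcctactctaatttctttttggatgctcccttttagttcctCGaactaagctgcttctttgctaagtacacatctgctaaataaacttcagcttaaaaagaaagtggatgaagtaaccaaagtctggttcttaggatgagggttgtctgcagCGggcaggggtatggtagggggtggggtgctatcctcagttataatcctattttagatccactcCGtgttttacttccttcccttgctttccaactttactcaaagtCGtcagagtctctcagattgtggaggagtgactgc
The Hmgn5 stretch held 23 CpG, the Slc25a13 stretch 17 and the Lamb2 stretch 4. The promoters of Wsb2, Nmt1 and Vim held 40, 19 and 11 CpG, and Socs2 had no entry. Over 15188 promoters of tested genes the median was 19 CpG, with quartiles of 9 and 28. Of the higher genes with a promoter, Wsb2 stood above the upper quartile, the other 4 stood between the quartiles, and Lamb2 stood below the lower quartile.

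**Figure D1:**
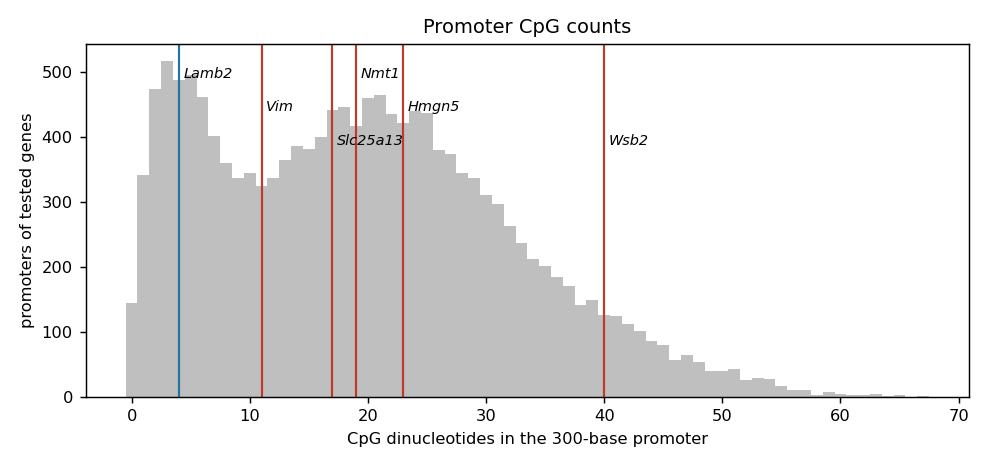
CpG dinucleotides (x axis) in the 300-base promoters of tested genes; bars count promoters, red lines mark 5 of the 6 genes that were higher in V and the blue line marks Lamb2. Lamb2 has 4 CpG, and the 5 others have 11 to 40, around the median of 19.

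Short motifs were searched on both strands of the promoters, with no regard to overlap between motifs. The CCAAT box (CCAAT) was in 5 of the 6 promoters, all but that of Lamb2, and in 37.6% of the promoters of tested genes and 37.4% of all promoters. The E-box (CACGTG) was in the Slc25a13 promoter alone among the 6, against 9.50% of the promoters of tested genes and 7.15% of all promoters. The TATA sequence (TATAAA) was in the Vim promoter alone, against 7.54% of the promoters of tested genes and 13.6% of all. The GC box (GGGCGG) was in the promoters of Wsb2 and Nmt1, against 58.6% of the promoters of tested genes and 35.7% of all. The E2F6 sequence (TTCCCGC) was in none of the 6, against 7.80% of the promoters of tested genes and 4.60% of all. These matches describe the letters in the window and no binding.

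Hmgn5, a nucleosome-binding protein encoded on the X chromosome that opposes chromatin compaction by linker histone, was at 213, 78.9 and 122 CPM in V1 to V3. It was at 62.6, 108 and 72.9 CPM in HxD1 to HxD3, at 139, 98.5 and 106 CPM in KO1 to KO3 and at 62.4, 39.9 and 57.4 CPM in WT1 to WT3. V1 was the highest library, and HxD1 stood just above WT1. Its log2 fold change was 1.37 ± 0.27 (SE) in V, where the gene was chosen. It was 0.60 ± 0.27 in HxD (not called, edgeR adjusted p = 0.669), and Hmgn5 rose by 1.10 ± 0.27 in KO (edgeR adjusted p = 0.0395). Without V1 the difference in V was 0.91, and without HxD2 that in HxD was 0.35. The coefficient of variation was 49.8% in V, 29.1% in HxD, 18.6% in KO and 22.2% in WT.

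**Figure D2:**
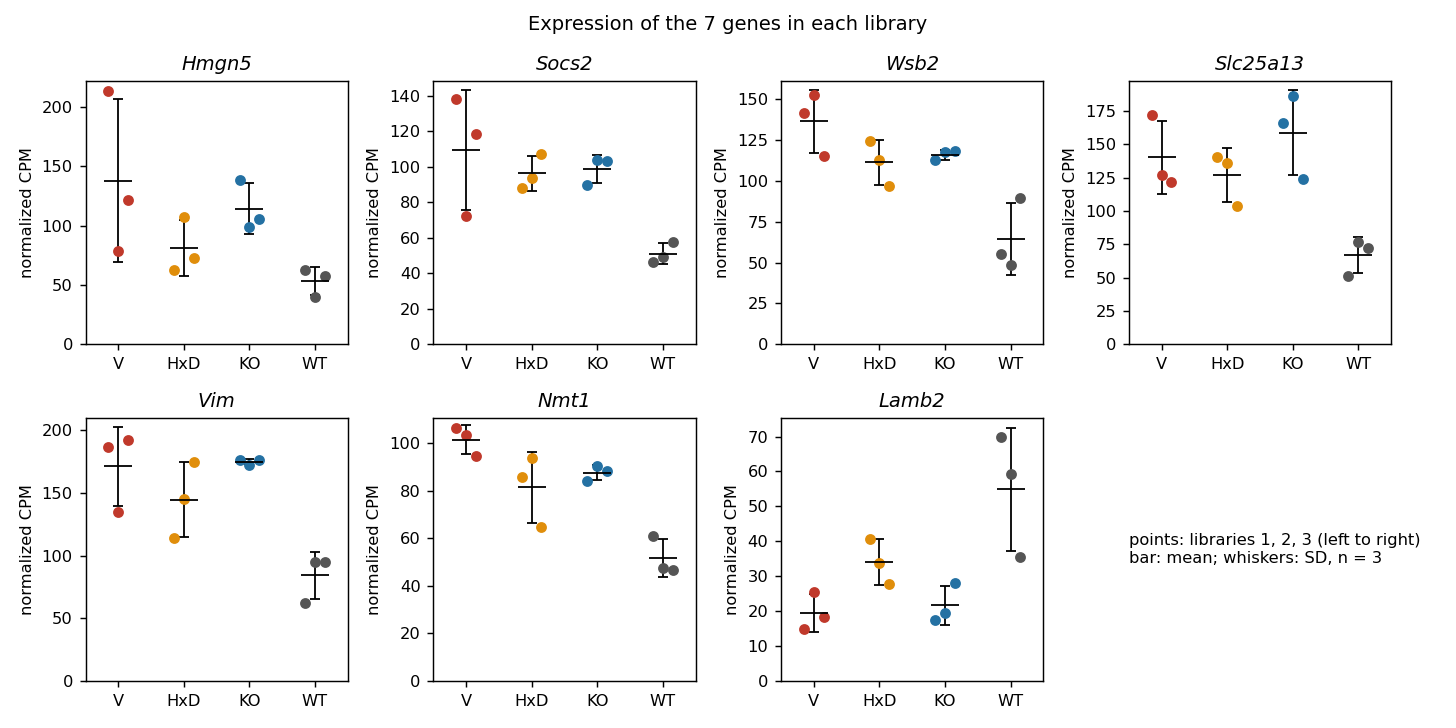
Normalized CPM (y axis) of the 7 genes in each library of V, HxD, KO and WT; points are libraries, bars are means and whiskers are SD (n = 3). Nmt1 is at 94.6 to 106 CPM in V, 65.0 to 93.6 CPM in HxD, 84.3 to 90.6 CPM in KO and 46.7 to 60.8 CPM in WT.

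The other HMGN genes were at unlike levels. Hmgn1, another nucleosome-binding member, averaged 540.5 ± 32.7 CPM in V, 424 ± 48.8 CPM in HxD, 432 ± 43.0 CPM in KO and 414 ± 35.6 CPM in WT. Hmgn2 averaged 150.1 ± 20.9, 156 ± 11.8, 166 ± 37.8 and 142 ± 27.2 CPM in the same groups, and Hmgn3 stayed at or under 4.06 CPM. Over all genes tested, 0.155% were called in V, 0.0309% in HxD and 1.22% in KO against WT. At those shares, few or no calls are likely in any of the gene lists given from here on. None of the 15 tested HMGN, linker histone and other HMG genes was called in V, HxD or KO against WT. Their median log2 fold changes were 0.08 in V, -0.16 in HxD and 0.13 in KO, beside medians of 0, -0.01 and -0.02 over all genes tested. Among regulators of X inactivation, the ubiquitin ligase gene Rlim was the 1 called gene of 5 tested. Rlim rose to 286 ± 44.9 CPM in KO, against 175 ± 30.7 CPM in WT (log2 0.71 ± 0.18, edgeR adjusted p = 0.0457), and it was at 256 ± 21.6 CPM in V and 259 ± 40.6 CPM in HxD.

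Socs2, a feedback inhibitor of growth hormone and cytokine signalling through JAK and STAT proteins, was at 138, 72.3 and 118 CPM in V1 to V3. It was at 88.1, 93.6 and 107 CPM in HxD, at 89.6, 104 and 103 CPM in KO and at 46.1, 49.0 and 57.7 CPM in WT. No mutant library overlapped WT. In log2 terms Socs2 differed by 1.11 ± 0.22 in V and 0.92 ± 0.22 in HxD (not called, edgeR adjusted p = 0.151), and Socs2 rose by 0.96 ± 0.22 in KO (edgeR adjusted p = 0.0227). Of 32 tested genes of the SOCS family and JAK-STAT signalling, Socs2 left out, none was called in any of the 3 comparisons with WT, with medians of -0.15 in V, 0.05 in HxD and -0.05 in KO. The related inhibitors Cish and Socs1 averaged 4.21 and 6.19 CPM in V, 7.15 and 4.94 CPM in HxD, 1.64 and 2.65 CPM in KO and 4.95 and 3.22 CPM in WT, and Socs3 was at or under 2.66 CPM in every library.

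Wsb2 encodes another protein with a SOCS box, the motif by which such proteins recruit a cullin ubiquitin ligase. It was at 142, 152 and 115 CPM in V1 to V3, at 124, 113 and 97.1 CPM in HxD, at 113, 118 and 118 CPM in KO and at 55.3, 48.7 and 89.3 CPM in WT. WT3 was the highest WT library and lay next to HxD3, the lowest mutant library. The log2 fold change was 1.08 ± 0.21 in V and 0.79 ± 0.21 in HxD (not called, edgeR adjusted p = 0.255), and Wsb2 rose by 0.85 ± 0.21 in KO (edgeR adjusted p = 0.0398). Without WT3 the gene was called in HxD too, at 1.10 (edgeR adjusted p = 0.0198, range 0.0198 to 0.964 over 20 alternatives).

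Wsb1, the closest relative of Wsb2, averaged 76.5 ± 3.25 CPM in V, 60.1 ± 9.98 CPM in HxD, 67.5 ± 18.5 CPM in KO and 54.2 ± 4.08 CPM in WT. None of 26 tested SOCS-box ligase genes was called in V, HxD or KO against WT, with medians of 0.03, -0.07 and -0.09. The sources do not state whether counting used strand. Reads of a gene that overlaps Wsb2 or Nmt1 on the opposite strand could therefore have been added to it. On the same strand, the noncoding RNA genes Gm26668 and Gm23322 overlap Nmt1 and Hmgn5, and their values were not examined. Rfc5, which overlaps Wsb2 on the opposite strand, had log2 fold changes of 0.30 ± 0.19 in V, 0.23 ± 0.19 in HxD and 0.10 ± 0.19 in KO. Dcakd, which overlaps Nmt1, had log2 fold changes of -0.11 ± 0.18, -0.06 ± 0.18 and -0.11 ± 0.18 in V, HxD and KO. Neither gene was called; both were named for their position and not for their values.

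Slc25a13 encodes citrin, the mitochondrial carrier that exports aspartate in exchange for glutamate as a step of the malate-aspartate shuttle. It was at 172, 127 and 122 CPM in V1 to V3, at 141, 136 and 104 CPM in HxD, at 166, 186 and 124 CPM in KO and at 51.3, 76.7 and 71.9 CPM in WT. The lowest mutant library, HxD3, stood well above WT2, the highest WT library. The log2 fold change was 1.07 ± 0.21 in V and 0.93 ± 0.21 in HxD (not called, edgeR adjusted p = 0.119), and Slc25a13 rose by 1.25 ± 0.21 in KO (edgeR adjusted p = 0.00217). It was the member with the smallest adjusted p in KO and was called there under all 20 alternatives (edgeR, DESeq2 or limma-voom adjusted p of 1.80e-06 to 0.0379).

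Slc25a12, the other aspartate-glutamate carrier, averaged 17.3 ± 1.88 CPM in V, 15.3 ± 6.87 CPM in HxD, 17.9 ± 9.59 CPM in KO and 10.7 ± 2.19 CPM in WT, and was not called. Of 18 tested genes of the malate-aspartate shuttle, urea cycle entry and neighbouring steps, 1 was called in KO and none in V or HxD. This was the lactate dehydrogenase gene Ldhb, which rose to 320.1 ± 29.0 CPM in KO, against 189 ± 34.3 CPM in WT (log2 0.76 ± 0.18, edgeR adjusted p = 0.0259). Ldhb was at 295 ± 40.3 CPM in V and 298 ± 26.6 CPM in HxD. The medians of that list were 0.28 in V, 0.15 in HxD and 0.26 in KO.

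Vim, the intermediate filament protein of mesenchymal and many embryonic cells, was at 186, 135 and 192 CPM in V1 to V3. It was at 114, 145 and 174 CPM in HxD, at 176, 172 and 176 CPM in KO and at 62.5, 94.7 and 95.04 CPM in WT. The coefficient of variation was 18.6% in V, 20.8% in HxD, 1.25% in KO and 22.2% in WT. Vim differed by a log2 fold change of 1.02 ± 0.20 in V and 0.78 ± 0.20 in HxD (not called, edgeR adjusted p = 0.239), and Vim rose by 1.06 ± 0.20 in KO (edgeR adjusted p = 0.00954). In bulk libraries more cells of a type and more RNA per cell cannot be told apart. The 10 markers of interstitial and mesenchymal cells, which express Vim, summed to 5.89 to 19.1 CPM in V, 3.77 to 15.05 CPM in HxD, 3.08 to 16.4 CPM in KO and 3.31 to 6.71 CPM in WT. Within that list Dcn was at 0 in KO and WT, and Nr2f2 was at 0 in WT. Both were also at 0 in HxD1, V2 and V3. Pdgfra (1.37 to 1.65 CPM) and Col1a1 (1.31 to 1.65 CPM) were above 0 in every WT library. None of that list's 4 tested genes was called, and the sum was highest in V1 (Col3a1 at 13.5 CPM there); its part in the level of Vim was not tested.

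Among other filament genes, Krt18, an epithelial keratin, was at 24.9 to 36.2 CPM in V, 18.9 to 37.7 CPM in HxD, 28.2 to 53.6 CPM in KO and 36.3 to 50.4 CPM in WT, and its partner Krt8 was at or under 8.82 CPM; neither was called. Of 25 tested genes of filaments and their partners, 1 was called in KO and none in V or HxD. Plec, the linker protein that ties filaments to the membrane, fell to 25.1 ± 5.40 CPM in KO, against 76.1 ± 31.6 CPM in WT (log2 -1.60 ± 0.34, edgeR adjusted p = 0.0171). Plec was at 30.5 ± 17.8 CPM in V and 32.7 ± 4.57 CPM in HxD.

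Nmt1, which attaches the fatty acid myristate to the start of many signalling proteins, was at 106, 104 and 94.6 CPM in V1 to V3. It was at 85.9, 93.6 and 65.0 CPM in HxD, at 84.3, 90.6 and 88.1 CPM in KO and at 60.8, 47.6 and 46.7 CPM in WT. Every V library stood above every HxD and KO library, and HxD3 lay just above WT1. Because the V libraries chose the gene, its place above HxD and KO is only a description. The share of all genes in that order was not counted. The log2 fold change was 0.97 ± 0.20 in V, 0.66 ± 0.20 in HxD and 0.76 ± 0.20 in KO, and Nmt1 was called neither in HxD (edgeR adjusted p = 0.391) nor in KO (edgeR adjusted p = 0.0542). In KO it passed under 4 of 20 alternatives, among them DESeq2 (adjusted p = 0.0276). Its relative Nmt2 averaged 365 ± 6.26 CPM in V, 309 ± 19.2 CPM in HxD, 376 ± 92.8 CPM in KO and 317 ± 34.4 CPM in WT and was not called. None of 28 tested genes of N-myristoylation, enzymes and substrates together, was called in V, HxD or KO, with medians of 0.09, 0.02 and 0.08.

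Lamb2 encodes the beta-2 chain of laminin, a trimer of the basement membrane, and was the member with lower levels. It was at 14.8, 25.4 and 18.2 CPM in V1 to V3, at 40.8, 33.8 and 27.7 CPM in HxD, at 17.4, 19.5 and 28.0 CPM in KO and at 69.9, 59.1 and 35.6 CPM in WT. The V and KO libraries stood below WT, while HxD1 stood above WT3, the lowest WT library. Lamb2 had a log2 fold change of -1.49 ± 0.32 in V and -0.69 ± 0.31 in HxD (not called, edgeR adjusted p = 0.675), and Lamb2 fell by 1.34 ± 0.32 on the log2 scale in KO (edgeR adjusted p = 0.0322).

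Values of the chains that pair with or replace the beta-2 chain were as follows. Lamb1, the beta-1 chain, averaged 239 ± 23.9 CPM in V, 314 ± 58.1 CPM in HxD, 300.4 ± 40.8 CPM in KO and 210.3 ± 53.3 CPM in WT. Lamc1, the gamma-1 chain, averaged 183 ± 13.1 CPM in V, 216 ± 9.16 CPM in HxD, 239.9 ± 69.0 CPM in KO and 149 ± 42.2 CPM in WT, and neither was called. Of 29 tested genes of laminins, their receptors and the basement membrane, none was called in V or HxD, and 1 was higher and 1 lower in KO. Both encode integrin subunits. Itgav rose to 61.6 ± 9.49 CPM in KO against 28.1 ± 11.5 CPM in WT (log2 1.13 ± 0.28, edgeR adjusted p = 0.0388). Itgb5 fell to 25.1 ± 10.1 CPM in KO against 60.0 ± 9.84 CPM in WT (log2 -1.26 ± 0.32, edgeR adjusted p = 0.0441). Itgav was at 45.1 ± 5.05 CPM in V and 38.6 ± 7.09 CPM in HxD, and Itgb5 at 28.5 ± 9.26 CPM in V and 40.3 ± 11.7 CPM in HxD.

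**Figure D3:**
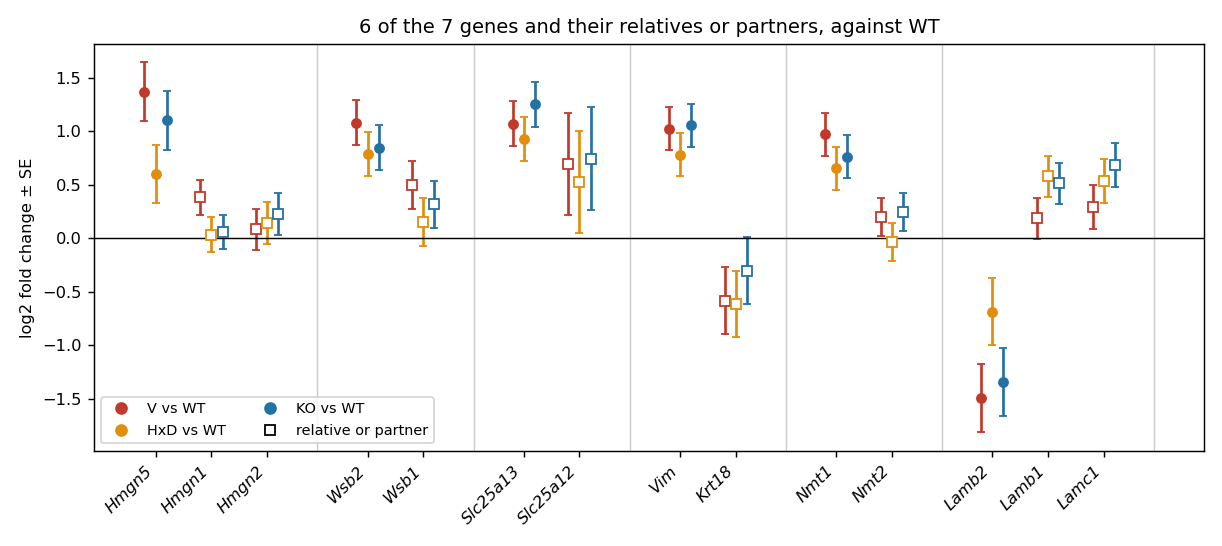
Log2 fold change ± SE (y axis) against WT in V, HxD and KO for 6 of the 7 genes (filled circles) and relatives or partners with a mean of at least 5 CPM (open squares). The relatives of Hmgn5, Nmt1 and Wsb2 lie between -0.04 and 0.50, and Lamb1 and Lamc1 are positive where Lamb2 is negative.

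Read across the mutants, 5 members rose and 1 fell in KO against WT (edgeR, adjusted p under 0.05), with Nmt1 not called. Over all genes tested 0.724% were called higher and 0.495% lower in KO, 117 and 80 genes, or 1.22% in all; under DESeq2 size factors 90 genes were higher, 95 were lower and 5 members were called. The WT libraries also served to choose the members, so these calls are not independent of the choice. The number of members called was 1 without WT1, 2 without WT2 or KO2, 3 without KO1 or KO3, 4 without V3, 5 without V2, 7 without HxD1, and 1 when HxD1, KO1 and KO3, which had 12815, 13879 and 12568 genes with a count, were left out together. In that fit a single KO library is left, and its spread is taken from the other groups. Of the 6 calls, that of Slc25a13 held whichever of the 12 libraries was left out, that of Vim was lost without WT1 (edgeR adjusted p = 0.0771), and those of Hmgn5, Socs2, Wsb2 and Lamb2 were each lost without 4 to 7 libraries.

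In HxD against WT none of the 7 members was called by edgeR, against 0.0309% of all genes (5 genes). By DESeq2 2 were called, among 63 genes in all, and by limma-voom 0, among 15 genes. At an unadjusted p under 0.05 were all 7 members and 1172 of the 16166 genes. The signs were those in V, with 6 positive values and 1 negative, and the comparisons share the WT libraries. The median log2 fold change of the 6 positive members was 1.08 in V, 0.78 in HxD and 1.01 in KO. The members were chosen on their V values, so the V median is a description and not a like measure beside the others.

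**Figure D4:**
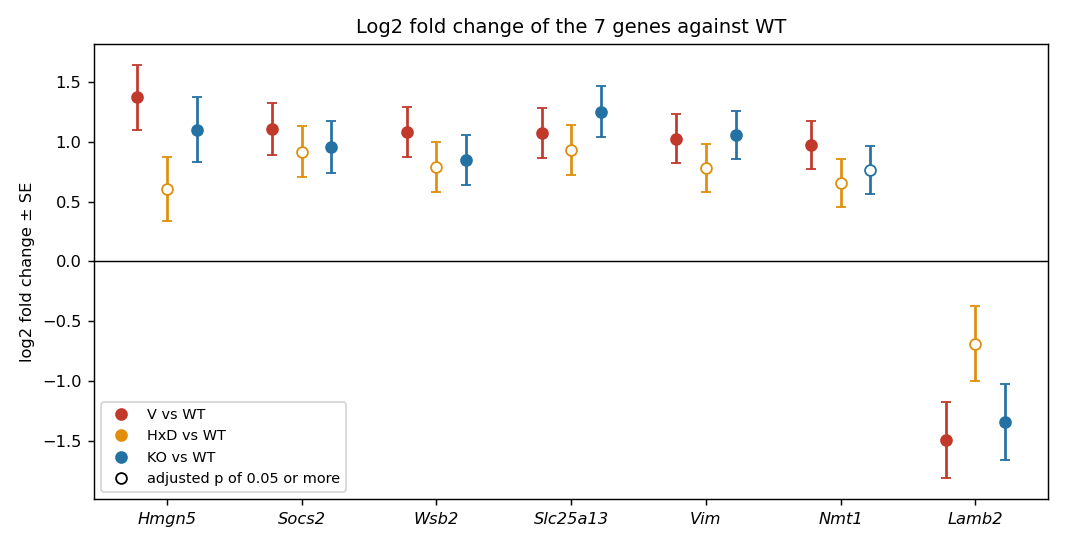
Log2 fold change ± SE (y axis) of the 7 genes in V, HxD and KO against WT; open circles have an adjusted p of 0.05 or more. The V values chose the genes and are shown as a description; the HxD values lie between 0.60 and 0.93 for the 6 higher genes and the KO values between 0.76 and 1.25.

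Each of the 6 higher members stood above the highest WT library in all 9 mutant libraries, and Lamb2 stood below the lowest WT library in 8 of 9. The V and WT libraries chose the members, so this count is a description. Among all genes tested, 1.79% had every mutant library above every WT library and 2.05% had every one below. Over the 6 members together, the mean difference of log2(CPM + 1) from the WT mean was 1.36, 0.83 and 1.04 in V1 to V3, 0.72, 0.91 and 0.70 in HxD1 to HxD3, and 1.03, 1.03 and 0.95 in KO1 to KO3. It was -0.09, -0.08 and 0.17 in WT1 to WT3. V1, the library with the highest value, had the fewest counts of the 12 libraries and the largest sum of supporting cell markers; their part in the result was not tested.

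**Figure D5:**
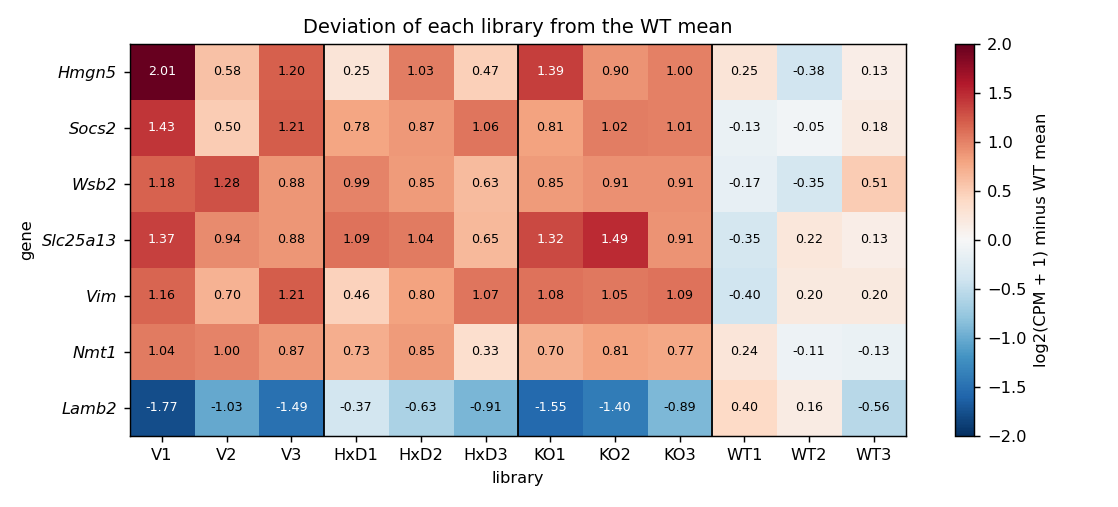
Difference of log2(CPM + 1) from the WT mean for each gene (rows) and library (columns, in groups V, HxD, KO and WT); red is higher and blue lower than the WT mean. Hmgn5 reaches 2.01 in V1 and 0.25 in HxD1, and Lamb2 lies between -1.77 and -0.37 in the 9 mutant libraries.

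The comparison of KO with HxD shares no library with the one that chose the members. None of the 7 was called in it by edgeR, where the share of all genes called was 0% (0 of 16166 by edgeR, 514 at an unadjusted p under 0.05, 27 by DESeq2 and 0 by limma-voom). The log2 fold changes were 0.50 ± 0.27 for Hmgn5, 0.32 ± 0.21 for Slc25a13, 0.28 ± 0.20 for Vim, 0.11 ± 0.20 for Nmt1, 0.06 ± 0.21 for Wsb2 and 0.04 ± 0.21 for Socs2. For Socs2 the 95% interval ran from -0.38 to 0.46 and for Hmgn5 from -0.03 to 1.02. Lamb2 had a value of -0.66 ± 0.31, with an interval of -1.27 to -0.04 and an unadjusted p of 0.0457 (edgeR adjusted p = 1). These intervals are not adjusted for the number of genes.

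Between V and the other mutants no test was made, because the V libraries chose the members. Against HxD the V values differed by 0.77 ± 0.27 for Hmgn5, by -0.81 ± 0.31 for Lamb2 and by 0.14 to 0.32 for the other 5. Without V1 the value for Hmgn5 was 0.31, and the sign turned for Socs2 (-0.013) and Slc25a13 (-0.027). Against KO they differed by 0.27 ± 0.27 for Hmgn5, -0.18 ± 0.21 for Slc25a13 and -0.15 ± 0.31 for Lamb2, with the other 4 between -0.03 and 0.23. Without V1 the sign turned for Hmgn5 (-0.19) and Socs2 (-0.052), without V2 for Vim (0.13), and without V1 or KO3 for Lamb2 (up to 0.081).

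In V against WT, the contrast behind the choice, 0.155% of all genes tested were called, 25 genes, of which 11 were higher and 14 lower, or 10 and 22 under DESeq2 size factors. All 7 members were among the 25, with adjusted p values of 0.0335 to 0.0486, and Lamb2 lay closest to the threshold. Just outside it were genes tied at 0.0577, among them Cep170b, L1td1 and Tgfbr1. None of the 7 stayed past the threshold without V1, without WT2, or when genes averaging under 5 CPM were dropped; 1 did with HxD1, KO1 and KO3 left out together or with the V and WT libraries alone, 2 without WT1, 3 without V3 and 3 by limma-voom. Without V1 the 7 log2 fold changes were 0.91 for Hmgn5, 0.91 for Socs2, 1.05 for Wsb2, 0.90 for Slc25a13, 0.96 for Vim, 0.94 for Nmt1 and -1.33 for Lamb2.

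Per kilobase of exon, with lengths from GENCODE M21, the level in V was highest for Hmgn5 (71.3 CPM per kb), then Slc25a13 (36.9), Vim (36.1), Wsb2 (23.3), Nmt1 (20.2), Socs2 (11.5) and Lamb2 (3.20). In WT the level was 27.5 CPM per kb for Hmgn5, 17.7 for Vim, 17.5 for Slc25a13, 11.003 for Wsb2, 10.3 for Nmt1, 9.03 for Lamb2 and 5.34 for Socs2. Vim and Slc25a13, and likewise Wsb2 and Nmt1 and then Nmt1 and Lamb2, were neighbours whose WT levels differed by less than their spread. Lamb2 was below Socs2 in V, in HxD (5.61 and 10.1 CPM per kb) and in KO (3.56 and 10.4 CPM per kb), and above it in the WT mean, WT1 and WT2 but not in WT3.

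For each member, the genes of most like pattern over the 12 libraries were found among 9942 others with a mean of at least 5 CPM. Likeness was the root mean square difference of log2(CPM + 1) values after each gene was centred on its mean. Nearest to Hmgn5 were Miip, Ppcs and Klf2 (differences of 0.28, 0.30 and 0.32), the largest distances of any of the 6 higher members. Distances were not scaled, and Hmgn5 also varied most of those 6. Its root mean square deviation from its own mean was 0.62, against 0.39 to 0.53 for the others. Nearest to Socs2 were Mpp1, Vim and Gas5 (0.17, 0.19 and 0.20), so that Vim, itself a member, came second. Nearest to Wsb2 were Kti12, Dnd1 and Egln3 (0.14, 0.15 and 0.19), and Dnd1, which encodes a germ cell RNA-binding protein and is one of the 10 germ cell markers, was at 268 ± 17.6 CPM in V, 245.5 ± 21.7 CPM in HxD, 254 ± 39.8 CPM in KO and 156 ± 42.6 CPM in WT. Nearest to Slc25a13 were Vdac1, Acss1 and Diaph1 (0.17, 0.19 and 0.22); Vdac1, the main channel of the outer mitochondrial membrane, was at 115 ± 17.97 CPM in V, 119 ± 8.58 CPM in HxD, 124 ± 9.21 CPM in KO and 58.6 ± 17.3 CPM in WT. Nearest to Vim were Txnrd1, Ybx1 and Cd24a (0.15, 0.17 and 0.18), nearest to Nmt1 were Oat, Ppcs and Mettl9 (0.18, 0.20 and 0.20), and nearest to Lamb2 were Dusp16, Tbc1d9b and Klhl5 (0.22, 0.26 and 0.27).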

How the data were processed

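RNA was extracted from 5000 cells per library on a column kit and enriched with oligo d(T) beads, per the labels' protocols. The authors deposited raw counts per gene. Per the submitters' processing notes, reads went through featureCounts 2.0.3, SAMtools 1.9, STAR 2.7.10b, Trim Galore 0.6.7 and FastQC in an order not stated, and the builds GRCm39 and mm10 are named with no role. Neither strand setting nor annotation, nor the handling of multi-mapping reads, is stated in these sources.

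From the 12 libraries, genes were kept with edgeR's filterByExpr (16166 of 35976), scaled by TMM and tested with edgeR 4.0.16 in R 4.3.3, using the quasi-likelihood test with 4 groups in 1 fit and Benjamini-Hochberg adjustment over all genes tested. A gene was called at an adjusted p under 0.05. CPM values are normalized by TMM. DESeq2 1.42.0, limma-voom (limma 3.58.1), other filters, a replicate block and left-out libraries were the alternatives. Replicates differed by a chi-square of at least 29.9 per degree of freedom, more than counting error, so none was counted as a duplicate.

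The members and gene lists were chosen with earlier results of these data known. The genes named are the members, relatives or partners chosen by name, called genes of the pathway lists (up to 4 per list and comparison, by adjusted p), the 3 genes of most like pattern to each member, overlapping genes and Tet1. In the lists, 9 symbols were matched by an older name. Promoters of 6 members were matched in RefSeq. The sources do not state which part of Tet1 is deleted in KO.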

Additional observations from a re-analysis of the deposited data

How the results depend on the processing

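Genes called in V against WT numbered 25, and 149 by DESeq2, 176 with no filter, 5 with a mean of at least 5 CPM, 16 without HxD1, KO1 and KO3 together, 73 with the replicate block and 2 to 110 with 1 library left out. In HxD against WT they numbered 5, and 63 by DESeq2, 15 by limma-voom, 71 with no filter, 1 with a mean of at least 5 CPM, 22 with the replicate block, 20 with the 6 libraries compared and 1 to 35 with 1 library left out. Members called there numbered 0, and 2 by DESeq2, 3 with no filter and 0 to 1 with 1 library left out. In KO against WT 197 genes were called, and 469 by DESeq2, 464 with no filter, 30 without the 3 libraries together and 31 to 357 with 1 library left out; 6 members were called, against 1 without the 3 libraries and 1 to 7 with 1 library left out. In KO against HxD 0 genes were called, and 1 with the size factors of DESeq2, 27 by DESeq2, 10 with no filter, 2 with the replicate block, 1 with the 6 libraries compared and 0 to 3 with 1 library left out; no member was called in any of these. The sign of the KO to HxD difference turned for Socs2 without HxD1 (-0.021, range -0.021 to 0.11), Wsb2 without HxD3 (-0.038, range -0.038 to 0.15) and Nmt1 without HxD3 (-0.043, range -0.043 to 0.22). The cause was not tested. Each member kept its sign in V, HxD and KO against WT under all 20 alternatives. This is a description, because the V and WT libraries chose the members and these comparisons share WT.

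Whether libraries with the same replicate number belong together is not stated, and the correlations below cannot settle it. Correlations between same-numbered libraries ran from -0.17 to 0.14, 2 of 18 were over 0.1, and 3 of 12 libraries correlated best with a library of their own number. With the replicate block 73 genes were called in V against WT, 22 in HxD and 285 in KO, against 25, 5 and 197 without it. Nmt1 was then called in KO too (0.77, edgeR adjusted p = 0.0450, range 0.0276 to 0.263 over the alternatives).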
